A study of Mus musculus with 9 samples.

Results

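The circadian clock genes described here are 10 genes of the molecular day-night oscillator: Arntl, Clock, Per1, Per2, Per3, Cry1, Cry2, Nr1d1, Nr1d2 and Dbp. They were chosen by gene symbol from a count table of 54134 entries. All 10 were found, each in a single entry, and all 10 were among the 13810 genes that passed the filter on low counts. Messenger RNA had been sequenced in 9 libraries of wild-type mouse cells labelled HT22 in the titles and HT-4 under cell type, a hippocampal neuronal line, with 3 libraries each of untreated control cells, cells given oxyhemoglobin (Hb) and cells given oxyhemoglobin plus NTR1 (Hb+NTR1). The series title writes NGR1 for the agent that the treatment label writes as NTR1, and no group had the agent alone. Doses, treatment times and the hour of harvest are details not stated in the sources used here.

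The mammalian clock is a feedback loop of transcription. BMAL1, the product of Arntl, pairs with CLOCK and switches on genes through E-boxes in DNA, among them the Period and Cryptochrome genes, whose proteins return to the nucleus and block the same pair. A second arm is formed by the nuclear receptors REV-ERB alpha and beta (Nr1d1 and Nr1d2), which bind heme and repress Arntl, while the factor DBP carries the rhythm to further genes through D-boxes. Most cultured cells keep such a loop, and without a shared cue the cells of a dish drift out of phase. With libraries that carry no time label, a shift in the phase of the loop and a change in its mean level cannot be told apart.

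Totals per library ran from 13415648 to 16893746 counts. Levels are CPM (read counts scaled to the effective size of the library) in n = 3 libraries per group, changes are log2 fold changes ± SE from edgeR, and adjusted p-values are Benjamini-Hochberg values over all genes tested, from edgeR's quasi-likelihood test. The labels do not say whether the 3 libraries of a group were separate cultures, so the p-values speak only of the spread among these 9 libraries, which may be technical. Hb replicate 2 stood apart from its group: chi-square over degrees of freedom, computed on gene counts, reached 13.2 beside Hb replicate 1 and 11.04 beside Hb replicate 3, and lay between 2.53 and 5.19 for all other pairs within groups. In this library genes with at least 8000 exon bases sat lower against genes with at most 2000, by -0.183 log2 relative to control, where Hb replicates 1 and 3 had 0.0835 and 0.116 and the Hb+NTR1 libraries 0.165 to 0.266. Of 20 neuronal markers 16 were under 1 CPM in each group, and in control 9 of them, Map2, Snap25 and Syt1 included, were at 0, while 11 fibroblast markers summed to 16870 to 17780 CPM in control, 14190 to 15350 in Hb and 2763 to 2879 in Hb+NTR1. Of the fibroblast markers tested, 9 of 9 were lower in Hb+NTR1 than in Hb, where 31.6% of all genes were lower. In the same order of groups 7 astrocyte markers summed to 315 to 349.5, 234 to 251 and 89.0 to 95.5 CPM, 7 microglia markers to 18.7 to 25.9, 13.1 to 14.9 and 4.32 to 4.39 CPM, and the neuronal markers to 172 to 182, 166 to 183 and 111 to 114 CPM. In each group 5 of the 7 astrocyte and 6 of the 7 microglia markers were under 1 CPM, so few genes made up these sums. The part of these shifts in the clock gene values was not tested. Mitochondrially encoded genes took 5.01%, 4.38% and 6.42% of counts in control, Hb and Hb+NTR1.

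Short sequences that clock factors are known to bind were looked for around the start sites of the members. Promoters from RefSeq (build GRCm38.p6, 250 bases before to 50 after a start site) were at hand for 9 of the 10 members, 13 promoters in all. Per2 had no entry. Both strands were searched for the E-box CACGTG, the E-prime box CACGTT, the D-box as TTATGTAA or TTATGCAA, the core of the ROR/REV-ERB element as TAGGTCA or TGGGTCA, and the cyclic AMP element TGACGTCA. No match of one motif overlapped a match of another. An E-box was present in Per1 and Cry1, in 2 of the 13 promoters, against 7.15% of the 32851 promoters of this length. An E-prime box was present in Cry1, Cry2 and Nr1d1, in 3 of the 13, against 4.68% of promoters. A D-box was present in Per1 and Per3, in 2 of the 13, against 1.66%. The ROR/REV-ERB core was found in Arntl, in 1 of the 13, against 6.45% of promoters, and the cyclic AMP element in 0 of the 13, against 1.79%. Clock, Nr1d2 and Dbp held none of these letters in the window. These matches describe letters in a short window. The 4 upstream stretches that follow, each 250 bases read 5′ to 3′ on the strand of the gene, show the matches in capitals for a member with D-boxes alone, a member with an E-box and a D-box, a member with both kinds of E-box and a REV-ERB gene.
Per3, chr4:151044666-151044915, minus strand: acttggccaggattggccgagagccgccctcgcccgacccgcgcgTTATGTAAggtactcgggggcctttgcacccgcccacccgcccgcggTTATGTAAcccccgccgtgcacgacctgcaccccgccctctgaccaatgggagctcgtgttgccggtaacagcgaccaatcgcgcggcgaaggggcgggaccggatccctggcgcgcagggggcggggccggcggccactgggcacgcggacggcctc
Per1, chr11:69098699-69098948, plus strand: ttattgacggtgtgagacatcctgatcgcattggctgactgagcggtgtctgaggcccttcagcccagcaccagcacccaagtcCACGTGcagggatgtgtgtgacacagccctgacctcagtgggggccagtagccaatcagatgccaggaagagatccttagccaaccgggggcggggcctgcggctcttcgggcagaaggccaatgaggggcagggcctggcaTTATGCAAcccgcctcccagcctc
Cry1, chr10:85185055-85185304, minus strand: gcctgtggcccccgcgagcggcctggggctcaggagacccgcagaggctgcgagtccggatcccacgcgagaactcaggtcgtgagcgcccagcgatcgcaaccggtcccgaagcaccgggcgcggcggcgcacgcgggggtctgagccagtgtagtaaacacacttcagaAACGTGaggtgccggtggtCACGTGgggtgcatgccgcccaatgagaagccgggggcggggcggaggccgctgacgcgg
Nr1d1, chr11:98775378-98775627, minus strand: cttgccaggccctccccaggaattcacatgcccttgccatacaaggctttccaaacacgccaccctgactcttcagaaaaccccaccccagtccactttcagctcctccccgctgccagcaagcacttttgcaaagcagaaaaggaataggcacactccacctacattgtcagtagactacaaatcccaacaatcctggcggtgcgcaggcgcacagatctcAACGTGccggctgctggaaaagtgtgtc
In Per3 the D-box TTATGTAA began at -205 and again at -158 from the start site. In Per1 the E-box began at -166 and the D-box TTATGCAA at -24. In Cry1 the E-prime box, read on the other strand as AACGTG, began at -79 and the E-box at -60, and in Nr1d1 an E-prime box, in the same reading, began at -28. REV-ERB proteins are known to repress Arntl through ROR/REV-ERB elements. The 30 bases around the core found in Arntl are shown because Arntl and both REV-ERB genes are members, with the core in capitals.
Arntl, chr7:113207529-113207558, plus strand: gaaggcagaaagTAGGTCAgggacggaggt

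Per length of exon sequence, Clock had the highest level of the members in control and Per2 the lowest. Clock had 9.77 ± 0.144 CPM per kilobase of exon (SD) and was followed by Nr1d2 (8.21 ± 0.550), Cry1 (7.29 ± 0.345), Nr1d1 (6.62 ± 0.197) and Per1 (6.29 ± 0.321). Arntl (4.37 ± 0.109), Per3 (2.66 ± 0.229), Cry2 (2.60 ± 0.102), Dbp (1.58 ± 0.102) and Per2 (0.977 ± 0.0674) came after them. Neighbours whose control libraries overlapped were Nr1d1 with Per1 and Per3 with Cry2. In Hb the order of the means was the same, with more overlaps, those of Clock with Nr1d2, Cry1 with Nr1d1, Nr1d1 with Per1 and Per3 with Cry2. In Hb+NTR1 Nr1d2 stood first at 15.2 ± 0.219 CPM per kilobase, above Clock at 13.4 ± 0.750 with no overlap, and Arntl stood below Cry2, at 2.23 ± 0.205 against 3.14 ± 0.153. Cry1, at 5.46 ± 0.459 CPM per kilobase, stood below Nr1d1 (8.72 ± 0.722) and Per1 (7.88 ± 0.321) there, without overlap with either. Exon lengths are those of GENCODE M21 and were not weighted by the isoforms present.

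**Figure D1:**
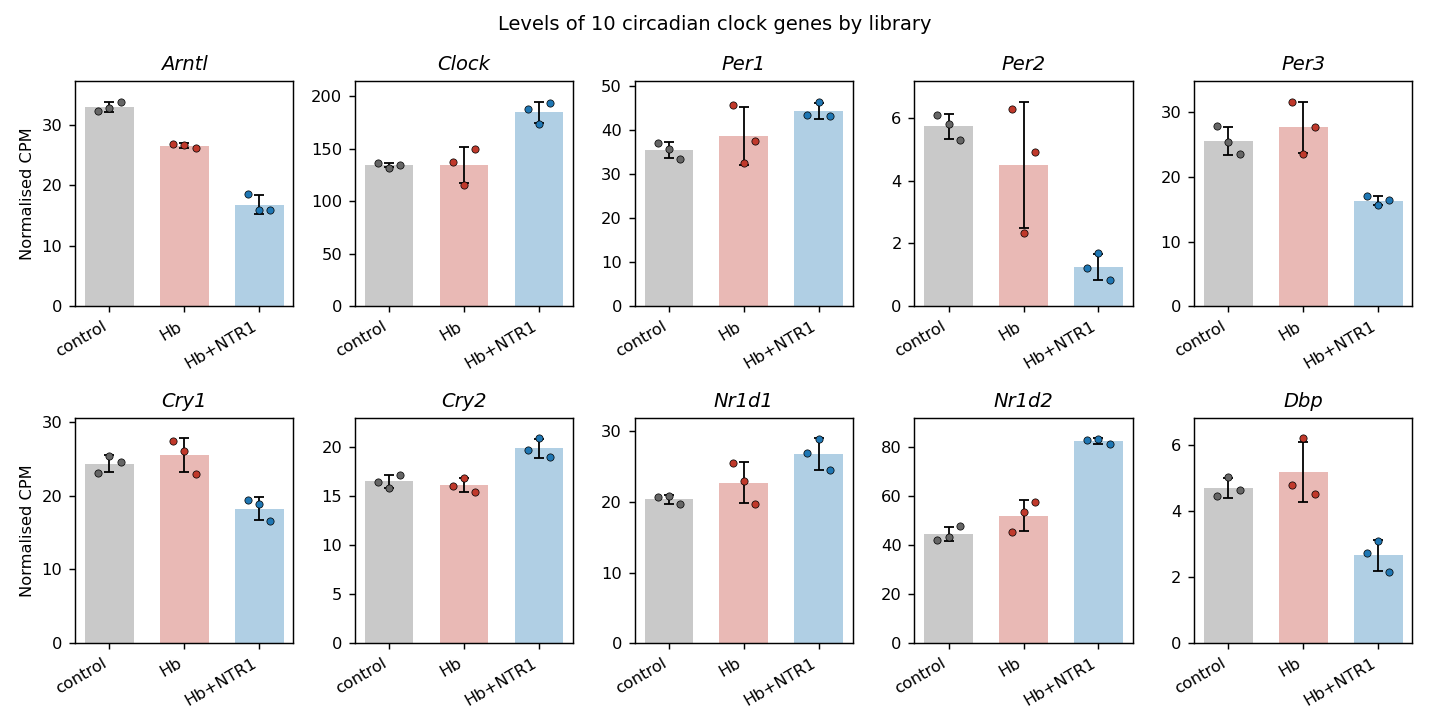
Normalised CPM (y axis, from 0, a scale of its own in each panel) of the 10 clock genes in control, Hb and Hb+NTR1; points are libraries, bars means and error bars SD of n = 3. Arntl falls from group to group without overlap, the Hb+NTR1 libraries lie lowest for Per2, Per3, Cry1 and Dbp, and they lie highest for Clock, Cry2 and Nr1d2.

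Hb was set against control to ask what oxyhemoglobin did to the clock genes. None passed the threshold: 0 of 10 were called by edgeR and 0 by DESeq2, where 3.65% of all genes tested were called by edgeR (1.88% higher and 1.77% lower; by library totals alone the split of calls was 377 higher and 196 lower in place of 259 and 245). At an unadjusted p under 0.05 edgeR had 2 of 10, Arntl and Nr1d2, where all genes gave 16.2%. The libraries of both groups did not overlap for 1 of 10, Arntl, against 19.6% of all genes. The median size of the log2 fold change, regardless of sign, was 0.13 over the members and 0.12 over all genes.

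Arntl, which encodes the activator BMAL1 (ENSMUSG00000055116.8, chr7:113207465-113314126), had 32.2, 32.6 and 33.8 CPM in control and 26.8, 26.6 and 26.1 CPM in Hb. All 3 Hb libraries lay below all 3 control libraries, yet the log2 fold change of -0.31 ± 0.0915 had an edgeR adjusted p = 0.0612. Without Hb replicate 2 it passed, at -0.31 and adjusted p = 0.0490, with more genes called overall. Nr1d2, which encodes REV-ERB beta (ENSMUSG00000021775.11, chr14:18204054-18239127), had 42.1, 43.4 and 47.8 CPM in control and 45.1, 53.2 and 57.4 CPM in Hb, and the groups overlapped. Its log2 fold change was 0.23 ± 0.0853 (edgeR adjusted p = 0.166), and it passed without Hb replicate 1, at 0.32 and adjusted p = 0.0316.

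Per2, which encodes a PERIOD repressor (ENSMUSG00000055866.9, chr1:91415982-91459324), had 6.08, 5.79 and 5.30 CPM in control and 6.29, 2.32 and 4.90 CPM in Hb. The low Hb value was that of replicate 2, from 34 counts. The log2 fold change of -0.35 ± 0.253 (edgeR adjusted p = 0.531) became -0.035 without that library. With all libraries its 95% interval ran from -0.88 to 0.17. Clock, the partner of BMAL1 (ENSMUSG00000029238.11, chr5:76209868-76304792), had 134.1 ± 1.95 CPM in control and 134.2 ± 17.3 CPM in Hb, with a 95% interval of the log2 fold change from -0.16 to 0.16. Hb replicate 2 was also its lowest Hb library, at 116 CPM against 137 and 149.9. The other 6 members, Per1, Per3, Cry1, Cry2, Nr1d1 and Dbp, had log2 fold changes of -0.031 to 0.16, with edgeR adjusted p from 0.498 to 0.923.

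Hb+NTR1 was compared with Hb to ask what the added agent did in cells that already had oxyhemoglobin. Clock genes went both ways. Per2, Dbp, Per3, Arntl and Cry1 fell, and Nr1d2, Clock and Cry2 rose, so that 8 of 10 were called, 3 higher and 5 lower. Of all genes tested, 62.3% were called in this comparison (30.7% higher and 31.6% lower), so a count of this size is close to what any gene list would show and is no result about the clock as a group. Libraries did not overlap for 8 of 10 members, against 64.7% of all genes. The median size of the log2 fold change was 0.57 over the members and 0.42 over all genes. In bulk RNA, fewer cells with a transcript and less of it per cell cannot be told apart.

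**Figure D2:**
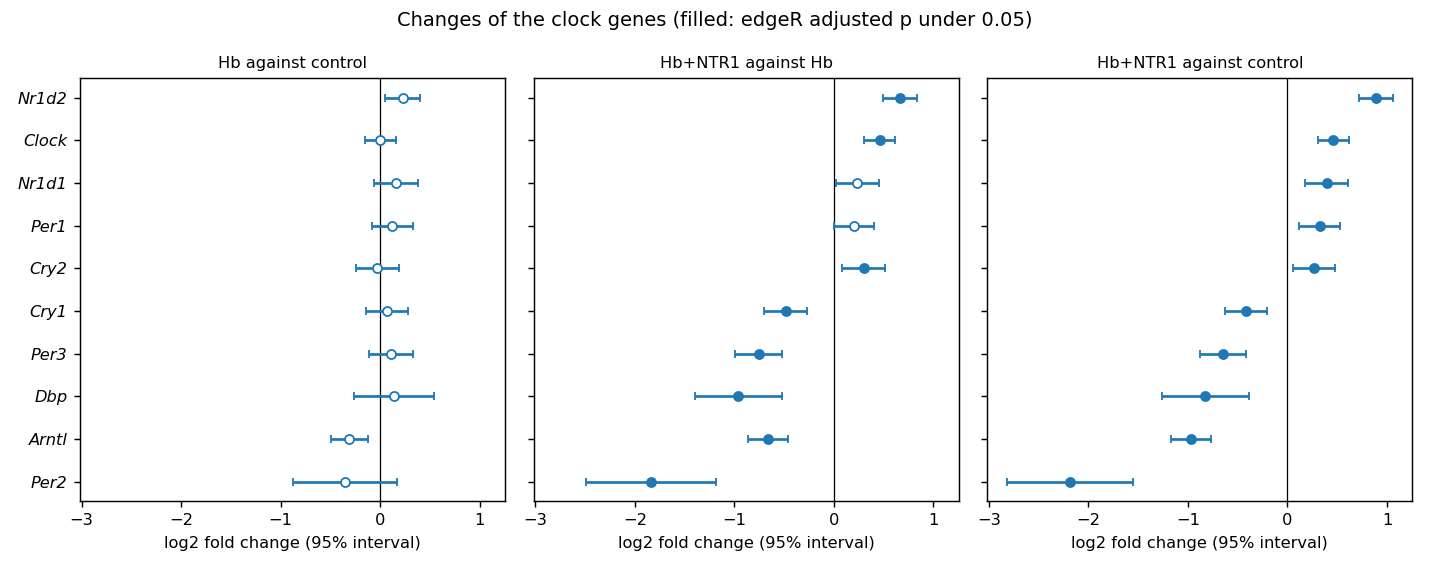
Log2 fold change (x axis) of each clock gene in the 3 comparisons, with its 95% interval; filled points have an edgeR adjusted p under 0.05. The comparisons share libraries, so the panels are not independent: none is filled for Hb against control, 8 are for Hb+NTR1 against Hb and 10 for Hb+NTR1 against control.

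The activator pair moved apart. Arntl had 18.6, 15.9 and 15.9 CPM in Hb+NTR1, all below the lowest Hb library at 26.1 CPM. It fell by 0.66 on the log2 scale, 1.58-fold (SE 0.0973, edgeR adjusted p = 2.93e-06). Clock had 187, 173 and 193 CPM in Hb+NTR1 against 137, 116 and 149.9 CPM in Hb, again with no overlap, and in the direction opposite to that of Arntl. It rose by 0.46 ± 0.0759 on the log2 scale (edgeR adjusted p = 1.29e-05), and by 0.36 without Hb replicate 2, its low Hb library. Clock and Per3, with 13727 and 9608 exon bases, are the members with at least 8000. Relative to control, such long genes sat higher against short genes in the Hb+NTR1 libraries and lower in Hb replicate 2. The part of this shift in the changes of Clock, which rose, and Per3, which fell, was not tested.

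The Period genes encode the repressors that accumulate and are degraded with each cycle, and their transcripts did not move alike. Per2 had 1.23, 1.69 and 0.836 CPM in Hb+NTR1, from 18, 24 and 12 counts, below the lowest Hb library at 2.32 CPM. It fell 3.57-fold (-1.84 ± 0.318 on the log2 scale, edgeR adjusted p = 2.40e-05), and the value was -2.16 without Hb replicate 2 and -1.52 without Hb replicate 1. Per3 (ENSMUSG00000028957.12, chr4:151003652-151044665), the member with a pair of D-boxes printed above, had 31.6, 23.6 and 27.8 CPM in Hb and 17.0, 15.7 and 16.4 CPM in Hb+NTR1. The groups did not overlap, and it fell 1.69-fold (-0.76 ± 0.113 on the log2 scale, edgeR adjusted p = 3.16e-06). Per1 (ENSMUSG00000020893.17, chr11:69095217-69109960), which has the E-box and D-box shown above and in many cells is also an early response gene, had 45.6, 32.6 and 37.5 CPM in Hb and 43.4, 46.4 and 43.2 CPM in Hb+NTR1. The groups overlapped, the log2 fold change was 0.20 ± 0.0985 and the edgeR adjusted p was 0.0773. Per1 had its highest Hb value in replicate 1, and without that library it passed, at 0.34 and adjusted p = 0.00349.

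The cryptochromes, which bind the activator pair and are the strongest repressors of the loop, went in opposite directions. Cry1 (ENSMUSG00000020038.10, chr10:85131700-85185064) had 27.5, 26.0 and 22.9 CPM in Hb and 19.4, 18.8 and 16.5 CPM in Hb+NTR1. It fell 1.397-fold with no overlap (-0.48 ± 0.104 on the log2 scale, edgeR adjusted p = 0.000320). Cry2 (ENSMUSG00000068742.11, chr2:92403646-92434043) had 16.03, 16.8 and 15.4 CPM in Hb and 19.7, 20.9 and 18.9 CPM in Hb+NTR1. All Hb+NTR1 libraries lay above all Hb libraries, by a log2 fold change of 0.30 ± 0.104 (edgeR adjusted p = 0.0153). The call of Cry2 ended without Hb+NTR1 replicate 2 (adjusted p = 0.0627) and with no filter on low counts (adjusted p = 0.0537).

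Of the REV-ERB receptors, which bind the element shown for Arntl, Nr1d2 had 82.4, 83.2 and 80.9 CPM in Hb+NTR1. The highest Hb library, at 57.4 CPM, was far below these, and the 3 Hb+NTR1 values lay close together. Nr1d2 rose 1.58-fold (0.66 ± 0.0829 on the log2 scale, edgeR adjusted p = 2.36e-07). Nr1d1, which encodes REV-ERB alpha (ENSMUSG00000020889.11, chr11:98767932-98775333), had 25.6, 23.0 and 19.7 CPM in Hb and 27.0, 28.9 and 24.5 CPM in Hb+NTR1, with overlap. Its log2 fold change of 0.24 ± 0.105 had an edgeR adjusted p = 0.0554, and the value crossed the threshold with DESeq2 size factors (adjusted p = 0.0476), with library totals alone (0.0379), without Hb replicate 1 (0.0168) and without Hb+NTR1 replicate 3 (0.0356). Dbp, the D-box activator that serves as a readout of the loop (ENSMUSG00000059824.12, chr7:45705088-45710203), had 4.80, 6.22 and 4.53 CPM in Hb and 2.74, 3.09 and 2.16 CPM in Hb+NTR1. It fell 1.95-fold without overlap (-0.96 ± 0.211 on the log2 scale, edgeR adjusted p = 0.000376).

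Against control, Hb+NTR1 libraries differed in every clock gene, with 5 higher and 5 lower. The 10 of 10 called stand beside 63.6% of all genes tested (31.4% higher and 32.2% lower), and the 10 of 10 without overlap beside 69.9%. Per2 fell 4.56-fold, from 5.72 ± 0.395 to 1.25 ± 0.425 CPM (-2.19 ± 0.307 on the log2 scale, edgeR adjusted p = 1.28e-06), and is the only member in the authors' deposited table of this comparison, which lists 691 genes with absolute log2 values from 2.005 upward. There the authors' deposited table gives Per2 a log2 fold change of -2.195 and an adjusted p of 2.02e-10. Arntl fell 1.96-fold, from 32.9 ± 0.820 to 16.8 ± 1.54 CPM (-0.97 ± 0.0954 on the log2 scale, edgeR adjusted p = 4.93e-09). Nr1d2 rose 1.85-fold, from 44.4 ± 2.98 to 82.2 ± 1.19 CPM (0.89 ± 0.0834 on the log2 scale, edgeR adjusted p = 2.13e-09).

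The smaller changes against control were those of the remaining 7 members. Dbp fell by 0.82, Per3 by 0.65 and Cry1 by 0.42 on the log2 scale, and Clock rose by 0.46 (edgeR adjusted p = 0.00166, 2.47e-05, 0.00130 and 1.22e-05). Nr1d1 rose from 20.4 ± 0.605 to 26.8 ± 2.22 CPM (edgeR adjusted p = 0.00234) and Per1 from 35.4 ± 1.80 to 44.4 ± 1.81 CPM (edgeR adjusted p = 0.00655), the pair that had not passed against Hb. Cry2 had 16.5 ± 0.645 CPM in control and 19.8 ± 0.971 CPM in Hb+NTR1 (0.27 ± 0.103 on the log2 scale, edgeR adjusted p = 0.0266). The call of Cry2 ended by DESeq2 (adjusted p = 0.0596), with no filter (0.0995) and without control replicate 1 (0.0627), control replicate 2 (0.0895), Hb+NTR1 replicate 1 (0.0529) or Hb+NTR1 replicate 2 (0.0967). Since the comparisons share the control, Hb or Hb+NTR1 libraries, a like direction in a pair of them is not a second observation.

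Ratios of counts between members of the same library need no scaling between libraries, but they do not remove a shift that depends on exon length. Arntl and Nr1d1 have 7523 and 3077 exon bases, and Cry1 and Cry2 have 3340 and 6320. Per1 and Per2 have 5631 and 5856, and Nr1d2 has 5409. The part of such a shift in these ratios was not tested. The ratio of Arntl to Nr1d1, an activator gene over a gene it drives and is repressed by, was 1.56, 1.57 and 1.72 in control, 1.05, 1.16 and 1.32 in Hb and 0.688, 0.551 and 0.648 in Hb+NTR1. The 3 groups did not overlap in this ratio. Arntl counts were above Nr1d1 counts in every control and Hb library and below them in every Hb+NTR1 library. Counts were not divided by exon length, so a ratio of 1 does not mark equal levels. Per kilobase of exon the mean of Nr1d1 was above that of Arntl in control (6.62 against 4.37 CPM), Hb (7.396 against 3.525) and Hb+NTR1 (8.72 against 2.23). The ratio of Cry1 to Cry2 was 1.41, 1.60 and 1.44 in control, 1.71, 1.55 and 1.49 in Hb and 0.986, 0.902 and 0.871 in Hb+NTR1. Control and Hb overlapped, and the Hb+NTR1 values lay below both. Per kilobase of exon the mean of Cry1 stayed above that of Cry2 in every group, at 5.46 against 3.14 CPM in Hb+NTR1. The ratio of Per1 to Per2 went from 6.10, 6.17 and 6.32 in control to 7.25, 14.03 and 7.65 in Hb and 35.2, 27.5 and 51.7 in Hb+NTR1. Hb replicate 2, low in Per2, gave the high Hb ratio. The ratio of Nr1d1 to Nr1d2 was 0.412 to 0.491 in control, 0.344 to 0.567 in Hb and 0.303 to 0.348 in Hb+NTR1, where Hb overlapped both other groups. No test was run on these ratios.

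**Figure D3:**
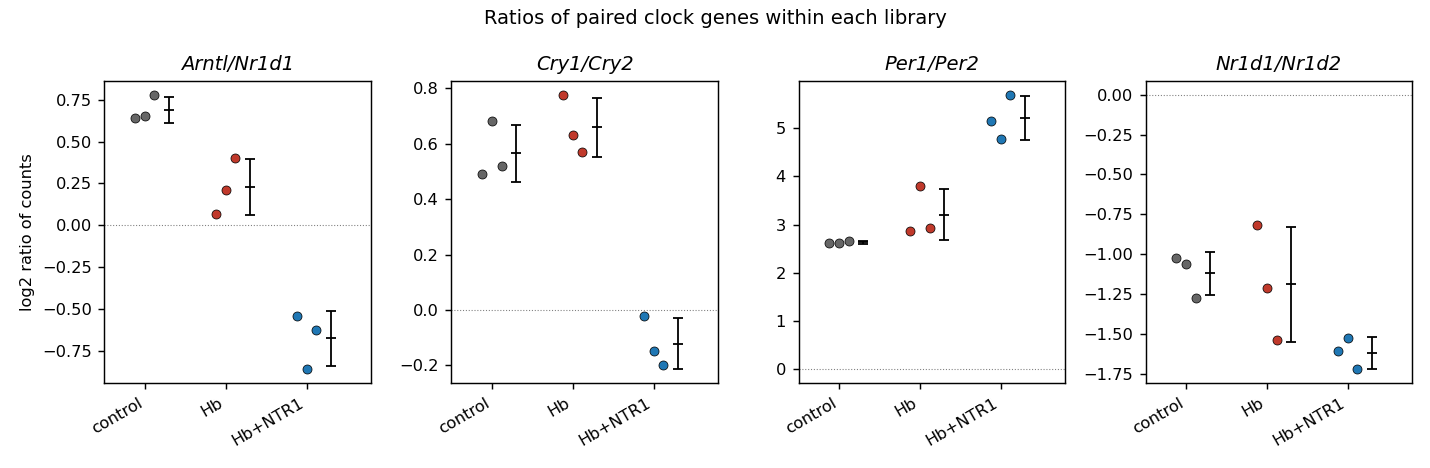
Log2 ratio of the counts of paired clock genes (y axis, a scale of its own in each panel) within each library of control, Hb and Hb+NTR1; points are libraries and the bars beside them mean and SD of n = 3, with 0 dotted. The Arntl/Nr1d1 and Cry1/Cry2 ratios are lower in every Hb+NTR1 library than in any control or Hb library. Counts were not divided by exon length, so the dotted 0 does not mark equal levels.

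Some members share genomic bases with a gene on the other strand, and no source used here gives the strand setting of the authors' counting. Nr1d1 overlaps Thra, which encodes the thyroid hormone receptor alpha, over 263 exon bases, 8.55% of the exon bases of Nr1d1 and 5.70% of those of Thra. Thra had 59.2 ± 1.79 CPM in control, 48.6 ± 5.84 CPM in Hb and 26.4 ± 3.29 CPM in Hb+NTR1, and fell in Hb+NTR1 against Hb (-0.88 ± 0.0981 on the log2 scale, edgeR adjusted p = 3.87e-08), in the direction opposite to Nr1d1. Dbp overlaps Sphk2, a sphingosine kinase gene, over 539 exon bases, 18.01% of the exon bases of Dbp. Sphk2 had 18.9 ± 2.92 CPM in Hb and 17.8 ± 1.99 CPM in Hb+NTR1 (edgeR adjusted p = 0.537). Cry2 overlaps the transcript D930015M05Rik over 295 exon bases, and that transcript was under 1 CPM in every group on average. Arntl shares 33 exon bases with the antisense transcript Gm45355, which had at most 2 counts in a library. Reads in the shared bases cannot be assigned without the strand, so the levels of Nr1d1 and Dbp in particular are uncertain to that extent.

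Other genes of the clock, 52 in 7 lists, were followed in the same way, and 44 passed the filter. In Hb against control 1 was higher and 2 lower of 44. In Hb+NTR1 against Hb 16 were higher and 15 lower, with a median size of the log2 fold change of 0.34, below the 0.42 of all genes. In Hb+NTR1 against control 14 were higher and 12 lower. These counts stand beside the 3.65%, 62.3% and 63.6% of all genes called.

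Among paralogs and loop genes, few were present. Npas2 and Arntl2, which can stand in for Clock and Arntl, had at most 3 counts in any library, and Rorb, which encodes a receptor that competes with REV-ERBs and activates Arntl, had 0 counts in all 9 libraries (a count of 0 allows up to 3 counts, 0.178 to 0.224 CPM, and covers counting error only). Rora, a related gene, had at most 6 counts. Bhlhe40, which encodes DEC1, a repressor that competes for E-boxes, rose from 49.7 ± 3.12 to 106.8 ± 4.66 CPM (1.11 ± 0.0723 on the log2 scale, edgeR adjusted p = 3.98e-12). Ciart, which encodes a repressor of the activator pair, fell from 2.46 ± 0.200 to 1.46 ± 0.320 CPM, a call (edgeR adjusted p = 0.0352) that ended by DESeq2 (adjusted p = 0.103), with no filter (0.0514), without Hb replicate 1 (0.0718) or 2 (0.0722) and without Hb+NTR1 replicate 1 (0.123) or 3 (0.103). Ciart lies under 5 CPM, outside the rule for naming genes, and was chosen after its values were seen, as were the genes named here that did not pass. Of the D-box factors, Nfil3, the repressor that opposes DBP at the same sites, fell from 28.1 ± 2.02 to 16.1 ± 1.51 CPM (-0.80 ± 0.107 on the log2 scale, edgeR adjusted p = 6.20e-07). Tef, a relative of Dbp, had 77.6 and 72.7 CPM in Hb and Hb+NTR1 (edgeR adjusted p = 0.343), and Hlf, another relative, did not pass the filter.

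**Figure D4:**
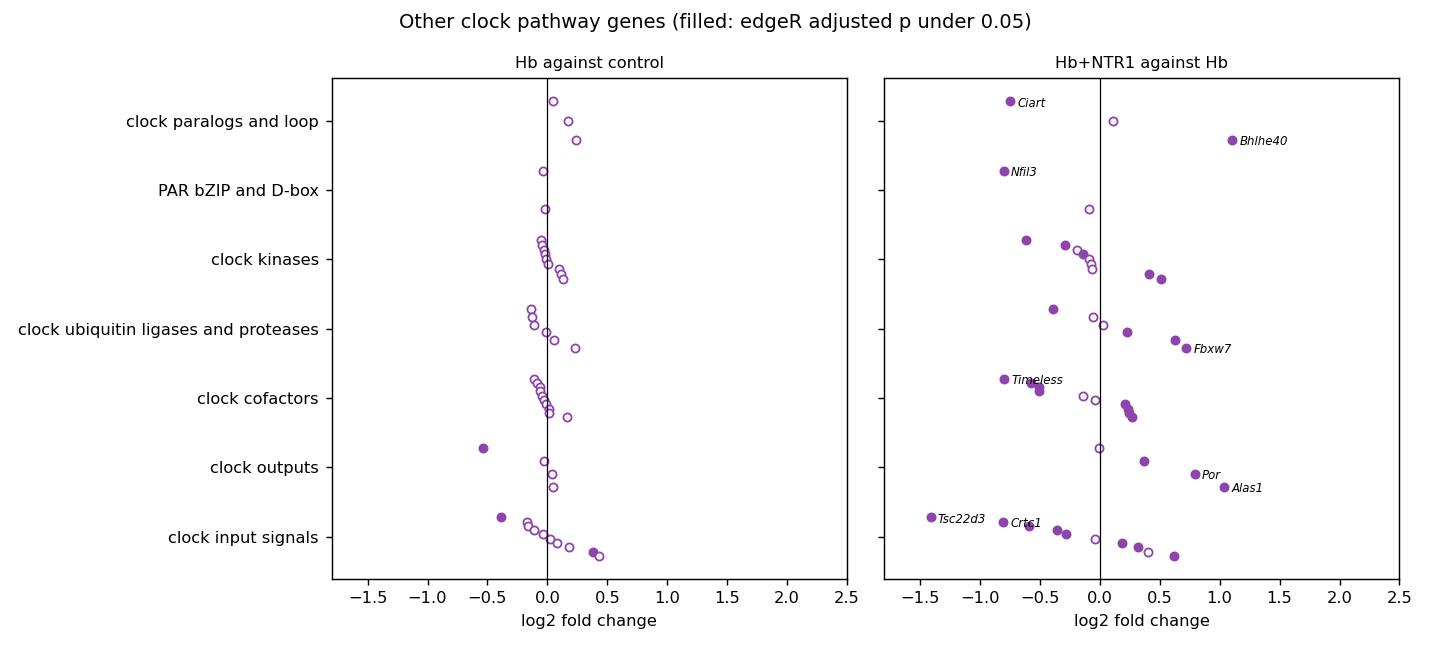
Log2 fold change (x axis) of 44 other clock pathway genes tested, by list (y axis), in Hb against control and Hb+NTR1 against Hb; filled points have an edgeR adjusted p under 0.05, and filled genes beyond 0.7 in either direction are named. Only 3 points are filled on the left and 31 on the right, with Bhlhe40 and Alas1 farthest up and Tsc22d3 farthest down.

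Kinases, ubiquitin ligases and proteases set the lifetime of clock proteins, PER and CRY among them. In Hb+NTR1 against Hb, 2 of 9 kinases were higher and 3 lower, and 3 of 6 ligases and proteases were higher and 1 lower. Of all genes tested, 30.7% were higher and 31.6% lower in this comparison. Csnk1e, a casein kinase that marks PER for degradation, fell from 58.2 ± 6.51 to 38.1 ± 2.16 CPM, while the related Csnk1d had 195.7 and 187.5 CPM (edgeR adjusted p = 1.43e-06 and 0.384). The energy sensor kinase gene Prkaa1 rose from 123.7 ± 3.39 to 176 ± 4.87 CPM and Gsk3b from 152 ± 8.92 to 202 ± 5.54 CPM (edgeR adjusted p = 1.30e-07 and 4.47e-06). Gsk3a and Csnk1a1 fell by 0.29 and 0.14 on the log2 scale (edgeR adjusted p = 0.00726 and 0.0433), calls that ended without Hb replicate 3 for Gsk3a (0.0504) and, for Csnk1a1, under 12 of the alternatives. Btrc, whose product targets PER, rose from 22.6 ± 1.82 to 35.1 ± 2.01 CPM (edgeR adjusted p = 8.02e-06). Fbxw7 rose from 26.9 ± 0.784 to 44.4 ± 1.80 CPM and Fbxw11, a close relative of Btrc, from 141 ± 2.65 to 165 ± 3.80 CPM, and the protease gene Usp2 fell from 13.2 ± 0.0494 to 10.06 ± 1.17 CPM (edgeR adjusted p = 1.09e-07, 0.00212 and 0.00996). The call of Usp2 ended without Hb+NTR1 replicate 1 (adjusted p = 0.0710). Of 10 cofactors 4 rose and 4 fell, beside the same shares of all genes. Timeless, which also acts in DNA replication, fell from 105 ± 0.811 to 60.4 ± 2.95 CPM, and the RNA-binding partners Nono and Sfpq fell from 585 ± 21.5 to 393 ± 6.23 CPM and from 668 ± 10.4 to 470.5 ± 4.28 CPM (edgeR adjusted p = 2.09e-10, 1.20e-08 and 6.69e-08). Sirt1, an NAD-dependent deacetylase gene, fell from 37.9 ± 3.81 to 26.7 ± 1.85 CPM (edgeR adjusted p = 7.41e-05). Ep300, a histone acetyltransferase gene, rose by 0.27 on the log2 scale (edgeR adjusted p = 0.0166), and by 0.12 without Hb replicate 2, which ended the call (adjusted p = 0.0734).

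Of 4 genes known as outputs of the clock, 3 were called higher in Hb+NTR1 than in Hb, where 30.7% of all genes were. A list this short gives no result about outputs as a group. Alas1, the first enzyme of heme synthesis, rose from 17.6 ± 1.96 to 36.1 ± 1.60 CPM, Por from 88.1 ± 5.82 to 153 ± 8.26 CPM and Nampt, an enzyme of NAD synthesis, from 112 ± 3.73 to 145 ± 3.15 CPM (edgeR adjusted p = 3.55e-09, 5.31e-10 and 3.75e-05). Wee1 had 59.4 CPM in both groups. Alas1 was also called in Hb against control, in the other direction, from 25.5 ± 1.44 to 17.6 ± 1.96 CPM (edgeR adjusted p = 0.00235). Of 10 genes of the signals that reset the clock, 3 rose and 5 fell in Hb+NTR1 against Hb, beside 30.7% and 31.6% of all genes. Tsc22d3, a target of the glucocorticoid receptor, fell from 31.01 ± 1.22 to 11.65 ± 1.39 CPM and Sgk1, another such target, from 287 ± 14.2 to 191 ± 16.7 CPM, while Nr3c1, the gene of the receptor itself, rose from 117 ± 7.05 to 179 ± 5.30 CPM (edgeR adjusted p = 2.92e-11, 5.27e-08 and 1.28e-08). Fkbp5, also a target of this receptor, rose from 68.6 ± 1.11 to 77.8 ± 3.22 CPM (edgeR adjusted p = 0.0247), a call that ended with no filter (adjusted p = 0.0983), with only the 6 libraries compared (0.0515), without Hb replicate 1 (0.0580) and without Hb+NTR1 replicate 2 (0.0913) or 3 (0.0664). Crtc1, a coactivator for CREB, fell from 22.4 ± 4.01 to 12.85 ± 0.902 CPM (edgeR adjusted p = 1.565e-05), and Sik1, a kinase that limits that pathway, from 29.04 ± 3.56 to 22.7 ± 0.977 CPM (edgeR adjusted p = 0.00455). Of the relatives of Crtc1, Crtc2 fell from 72.7 ± 8.16 to 59.9 ± 1.17 CPM and Crtc3 rose from 33.2 ± 4.495 to 41.4 ± 1.26 CPM (edgeR adjusted p = 0.00436 and 0.00495). Fkbp5, Crtc2 and Crtc3 lie outside the rule for naming genes and were chosen after their values were seen. In Hb against control Sgk1 rose from 221 ± 5.82 to 287 ± 14.2 CPM and Tsc22d3 fell from 40.5 ± 1.70 to 31.01 ± 1.22 CPM (edgeR adjusted p = 0.00102 and 0.0148), and Tsc22d3 missed the threshold when control replicate 2 (adjusted p = 0.0963) or Hb replicate 1 (0.0599) was left out.

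Per2, the called member that changed most with the added agent, was set beside 10298 other genes with at least 5 CPM on average. The measure of likeness was the root mean square distance of log2 CPM, centred per gene, over the 9 libraries. The genes nearest to it were Hspg2, Lrp1 and Rab39b, at 0.314, 0.315 and 0.317 log2 units. Hspg2, which encodes the matrix proteoglycan perlecan, had 718, 694 and 224 CPM in control, Hb and Hb+NTR1, and Lrp1, a large endocytic receptor gene, had 636, 579 and 209.6 CPM. Dbp, under 5 CPM on average, was not among the genes compared, and none of the other 8 clock genes was among the 10 nearest to Per2.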

How the data were processed

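The authors deposited a table of raw counts per gene symbol for 9 libraries, not normalised. Per the labels' protocols, libraries were made from poly(A) RNA with NEBNext kits. The build was GRCm38 and the tools HISAT2 2.1.0, HTSeq 0.10.0 and bcl2fastq 2.19.1.403, per the submitters' processing notes. No source used here gives the annotation, the strand setting or the treatment of multiply mapped reads. A second table deposited by the authors holds counts, log2 fold changes, p-values and adjusted p-values for Hb+NTR1 against control, and its test is not given. Count columns beginning in N were taken as Hb+NTR1, because that table holds only N and C columns.

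Of 54232 entries, 98 exact repeats were removed. In R 4.3.3, edgeR 4.0.16 kept genes by filterByExpr (minimum count 10), scaled by TMM and fitted all 9 libraries with a term for group, in a robust quasi-likelihood model. Tests were two-sided, p-values of each comparison were adjusted over 13810 genes by Benjamini-Hochberg, and the threshold was 0.05. The SE is the size of the log2 fold change over the square root of F. The fit was tested on simulated data. DESeq2 1.42.0 and other settings were alternatives. Gene models came from GENCODE M21 (GRCm38).

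The members and lists were chosen with earlier results of these data known. Some genes of these lists are not reported here and were taken out of the lists and their counts. Named genes were the 10 members and up to 5 called genes per list and comparison with at least 5 CPM. For the lists this rule was used in Hb against control and Hb+NTR1 against Hb. In Hb+NTR1 against control the lists are given by counts alone. Also named were genes over a member on the other strand and the 3 nearest to the most changed member by distance (prior count 2 for log2 CPM). The comparison of long with short genes (8000 and 2000 exon bases) was added after the data had been seen. A depth of 3 counts was taken as the floor of a library.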

Additional observations from a re-analysis of the deposited data

How the results depend on the processing

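The number of clock genes called in Hb against control was 0 under each alternative that kept all libraries or only the 6 compared, and 0 to 1 with a library left out: 1 without Hb replicate 1 (Nr1d2) and 1 without Hb replicate 2 (Arntl). All genes called in that comparison ran from 285 to 1125 with a library left out, against 504, with 315, 285 and 286 without control replicates 1, 2 and 3 and 1125 without Hb replicate 2. The clock genes called ran from 7 to 10 in Hb+NTR1 against Hb and from 9 to 10 in Hb+NTR1 against control. No gene followed here that was called changed direction under any alternative, over the clock genes, the other clock pathway genes and Thra. With the replicate number of control and Hb libraries as a block, 674 genes and 0 clock genes were called in Hb against control. Same-numbered control and Hb libraries did not deviate together (correlations across genes of 0.0953, -0.0226 and -0.0488), so the numbers were not taken as pairs. The block was not run for Hb+NTR1, because the names of its count columns match the group and not the titles of numbered samples, and the replicate numbers used for it here are names only. Depth limits Per2 most, at 12 to 24 counts per Hb+NTR1 library.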
